A study of Mus musculus with 8 samples.

Results

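Integrins are the receptors by which cells hold on to the extracellular matrix, and 10 genes for integrin chains that bind collagen, laminin, fibronectin or tenascin were compared between cornea and limbus of the mouse eye. The genes were taken by symbol, Itga1, Itga2, Itga3, Itga5, Itga8, Itga9, Itgav, Itgb1, Itgb5 and Itgb6, and the laminin receptor chains of the hemidesmosome (Itga6 and Itgb4) were left out. All 10 were found among the 23420 named genes of the deposited table and had reads, as did 17442 of the named genes. Total RNA came from corneal buttons and limbal rims of wild type C57BL/6J mice aged 8 weeks. The 16 eyes were dissected under a microscope and the tissue was pooled by region. The limbal rim is the ring where the cornea meets the conjunctiva and sclera and where the stem cells of the corneal epithelium reside, and the corneal button is the tissue inside this ring. The labels list 8 samples, 4 per tissue, whereas each deposited mean rests on just 1 cornea library and 1 limbus library, so neither a spread between replicates nor a test across them could be had.

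An integrin is a pair of an α and a β chain, and the pair decides which matrix protein is bound. Itgb1 encodes β1, the partner of most α chains listed here, whereas αv can pair with β1, β3, β5, β6 or β8. Inside the cell, talin and kindlin switch the receptor on and link it, through an adhesion complex, to the actin skeleton. In the corneal epithelium the basal cells use integrins to hold on to the laminin of their basement membrane, and integrins of the fibronectin and tenascin type are known from healing wounds and blood vessels.

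Reads on named genes numbered 26104317 in the cornea library and 21182025 in the limbus library. Normalized read counts are reads divided by a size factor, which was 1.03 in the cornea library and 0.967 in the limbus library. Log2 ratios are limbus over cornea throughout, positive values being higher in the limbus. Their 95% confidence intervals (CI) come from exact Clopper-Pearson limits on what share of a gene's reads was limbal. They cover counting error only, because there is 1 library per tissue. Reads copied by PCR and not marked by molecular identifiers are not independent, so even for counting error the intervals can be too narrow. With no replicates, genes were counted by size (a ratio of at least 2-fold) and by counting error (a CI that lay off 0). Among the 13932 named genes with a mean of at least 10 normalized reads, 18.0% were at least 2-fold higher in the limbus and 8.88% were so in the cornea. Beyond counting error the limbal side held 36.0% of them and the corneal side 40.5%. Their log2 ratios had a median of -0.04. With the libraries scaled to their total reads each log2 ratio was 0.21 higher, which moved the limbal share of the genes past 2-fold from 66.9% to 78.4%, and scaling to the upper quartile gave 75.9%.

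The tissue labels were set against marker genes. Krt12, the keratin of the corneal epithelium, had 1137735 cornea reads and 233324 limbus reads, and Krt15, a keratin of limbal basal cells, had 37738 and 353826. The limbus library thus held reads of the corneal epithelial marker as well. All 6 markers of limbal and conjunctival epithelium were at least 2-fold higher in the limbus, beside 18.0% of all genes. Their summed normalized reads were 84373 in the cornea against 658791 in the limbus. Of the markers of corneal epithelium, 3 of 5 were at least 2-fold higher in the cornea, beside 8.88% of all genes. In bulk tissue, fewer cells of a type and less RNA per cell cannot be told apart.

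The 10 genes divided by size of difference. At least 2-fold higher in the limbus were 4 of the 10, Itga1, Itga5, Itga8 and Itga9, beside 18.0% of all genes, and 1 of the 10, Itga2, was at least 2-fold higher in the cornea, beside 8.88%. Counting error was exceeded by 5 toward the limbus and by 4 toward the cornea, beside 36.0% and 40.5%. The 5 genes past 2-fold had between 3 and 308 reads in a library, and the chains with over 1000 reads in both, Itga3, Itgav, Itgb1 and Itgb5, differed by 1.25-fold to 1.62-fold. Across the 10 genes the log2 ratios had a median of 0.25 and ran from -1.80 to 4.99. Together they took 15561 cornea reads and 12227 limbus reads, which is 596.1 and 577.2 of every 1000000 reads on named genes.

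**Figure D1:**
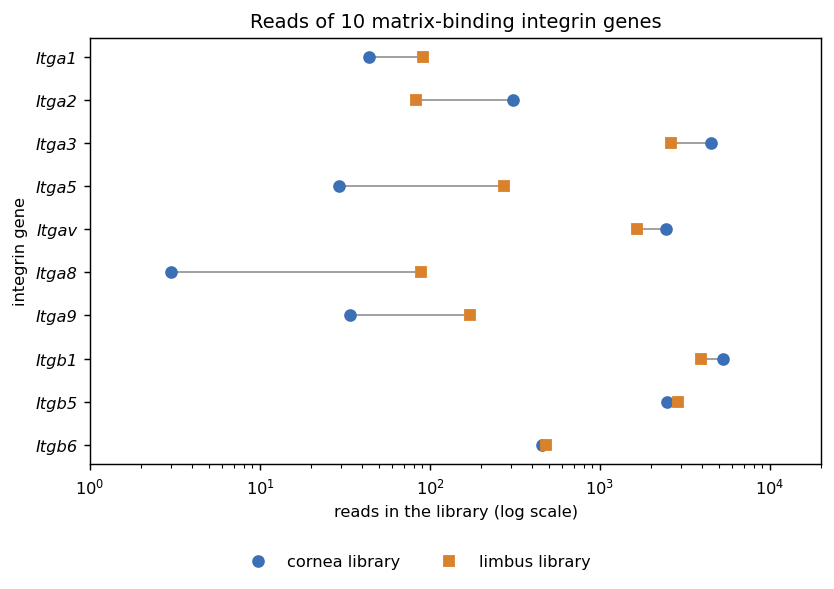
Reads of each integrin gene in the cornea library (circles) and the limbus library (squares), on a log axis. Itga8 lies farthest apart, 3 against 89 reads, whereas the symbols of Itgb5 and Itgb6 nearly coincide.

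The DNA just before the start is shown for Itga5 and Itga8, which differed most toward the limbus, and for Itga2, the 1 gene past 2-fold toward the cornea. Each line gives the 150 bases before the RefSeq transcript start (GRCm38.p6), read 5′ to 3′ on the strand of the gene, in lower case. Capitals mark the GC box (GGGCGG) or its reverse complement, and these windows hold no other motif that was searched.
Itga5 (chr15:103366792-103366941, minus strand): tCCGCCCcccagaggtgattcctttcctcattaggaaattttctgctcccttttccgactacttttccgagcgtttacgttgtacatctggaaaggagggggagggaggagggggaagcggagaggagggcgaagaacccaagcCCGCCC
Itga8 (chr2:12301945-12302094, minus strand): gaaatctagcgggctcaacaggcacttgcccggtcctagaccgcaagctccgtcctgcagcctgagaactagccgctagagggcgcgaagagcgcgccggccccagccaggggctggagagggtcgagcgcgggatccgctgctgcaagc
Itga2 (chr13:114932101-114932250, minus strand): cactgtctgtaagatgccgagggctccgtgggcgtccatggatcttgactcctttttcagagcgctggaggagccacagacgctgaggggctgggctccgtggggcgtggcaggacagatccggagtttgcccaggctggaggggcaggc
The motifs searched on both strands were the GC box (GGGCGG), the AP-1 site (TGANTCA), the TATA box (TATAAA) and the TEAD site (GGAATG). Of the windows shown, that of Itga5 held 2 GC boxes and the others held no match. The window of Itga9 is not shown because the start that RefSeq lists for it lies far inside the annotated span of the gene, so that the whole window does too. The windows of Itga3 and Itgb6 lie partly inside the annotated spans of their genes. Of all 10 windows, that of Itga9 included, those of Itga3, Itga5 and Itgb5 held GC boxes, 2 each, and that of Itgb1 held 1 TEAD site. Among the 32851 windows of the same length in the RefSeq table, 28.6% held a GC box, 4.2% an AP-1 site, 7.6% a TATA box and 7.6% a TEAD site. The GC content of the windows of Itga5, Itga8 and Itga2 was 56.7%, 68.0% and 64.7%, beside a median of 54.0% over all windows. These are matches of letters in a window and not sites of binding.

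The collagen receptors went opposite ways. Itga1 and Itga2 encode α1 and α2, which pair with β1, and α1 is known to favor the collagen IV of basement membranes whereas α2 favors the fibrillar collagen I. The genes are neighbors on chromosome 13 of GRCm38, Itga1 from 114953096 to 115101964 and Itga2 from 114833081 to 114932100, both on the minus strand. Itga2 had 308 cornea reads and 83 limbus reads, or 298 and 85.8 normalized reads. This is a log2 ratio of -1.80 (95% CI -2.16 to -1.44), or 3.47-fold higher in the cornea, and 1.81% of the 13932 genes had a ratio this low or lower. Itga1 had 44 cornea reads and 91 limbus reads, or 42.6 and 94.1 normalized reads. Its log2 ratio was 1.14 (95% CI 0.61 to 1.70), or 2.21-fold higher in the limbus, and the lower end of the interval lay below 2-fold. Pelo and Gm49395, both protein-coding, overlap Itga1 on the same strand, and how the counting shared out reads between them is not given. For each 1000 reads of Itga2 there were 143 reads of Itga1 in the cornea against 1096 in the limbus. This change in the ratio of 1 gene to the other does not depend on the scaling of the libraries, and it was 2.94 on the log2 scale (95% CI 2.28 to 3.60).

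Itga3 encodes α3, the β1-paired receptor for the laminins of epithelial basement membranes, and per length it was the highest of the 7 α chains compared here in both tissues. It lies on chromosome 11 from 95044474 to 95076801. Its reads numbered 4484 in the cornea against 2598 in the limbus, or 4338 and 2686 normalized reads. The log2 ratio of -0.69 (95% CI -0.76 to -0.62) was 1.62-fold higher in the cornea, under 2-fold and beyond counting error. Of the 13932 genes, 17.1% had a ratio this low or lower.

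The fibronectin receptor chain α5, encoded by Itga5 on chromosome 15 from 103344286 to 103366763, had 29 cornea reads and 271 limbus reads. In normalized reads these were 28.1 and 280.1, a log2 ratio of 3.32 (95% CI 2.76 to 3.93), or 9.99-fold higher in the limbus. A ratio this high or higher was found in 4.43% of the 13932 genes. Itgav encodes αv, which binds the RGD sequence of fibronectin and vitronectin, and lies on chromosome 2 from 83724397 to 83806916. It went the other way, with 2428 cornea reads and 1652 limbus reads, a ratio of -0.46 on the log2 scale (95% CI -0.55 to -0.37), or 1.38-fold higher in the cornea. For each 1000 reads of Itgav there were 11.9 reads of Itga5 in the cornea against 164 in the limbus, a log2 change of 3.78 (95% CI 3.22 to 4.39).

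Itga8 encodes α8, the β1-paired receptor for nephronectin that is known from smooth muscle and other contractile cells, and it had the widest difference of the 10 genes. It lies on chromosome 2 from 12106632 to 12301922, with an antisense gene on the other strand, and whether the counting used strand is not given. Only 3 reads were found in the cornea against 89 in the limbus, or 2.90 and 92.0 normalized reads. The log2 ratio was 4.99, and because of the 3 reads its 95% CI was wide, from 3.39 to 7.29. Of the 13932 genes, 1.06% had a ratio this high or higher.

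Itga9 encodes α9, the β1-paired receptor for tenascin C, EMILIN1 and SVEP1, and lies on chromosome 9 from 118606690 to 118901003, with an antisense gene and the same limit. It had 34 cornea reads and 172 limbus reads, or 32.9 and 177.8 normalized reads. The log2 ratio was 2.43 (95% CI 1.90 to 3.01), or 5.41-fold higher in the limbus. The log2 ratio of Itga5 exceeded that of Itga9 by 0.89 (95% CI 0.07 to 1.71), and that of Itga9 exceeded that of Itga1 by 1.29 (95% CI 0.50 to 2.08). Itga8 exceeded Itga5 by 1.67, with an interval from -0.08 to 4.06, so the order of these 2 could not be told at this depth.

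The β chains differed by less than 1.5-fold. Itgb1, on chromosome 8 from 128685654 to 128733200, had the most reads of the 10 genes, 5303 in the cornea against 3903 in the limbus. Its log2 ratio was -0.35 (95% CI -0.41 to -0.29), or 1.27-fold higher in the cornea. Itgb5, on chromosome 16 from 33829665 to 33949338, encodes the partner with which αv binds vitronectin. It had 2473 cornea reads and 2885 limbus reads, a log2 ratio of 0.32 (95% CI 0.24 to 0.40), or 1.25-fold higher in the limbus. Itgb6, on chromosome 2 from 60598292 to 60722643, encodes the epithelial partner with which αv releases active TGF-β from its latent form. It had 455 cornea reads and 483 limbus reads, a log2 ratio of 0.18 whose 95% CI spanned 0 (-0.01 to 0.37). With the libraries scaled to total reads this ratio was 0.39 (95% CI 0.20 to 0.58), and with upper quartile scaling 0.34 (95% CI 0.16 to 0.53), both off 0. Whether Itgb6 differed between the tissues was therefore not settled by these reads.

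**Figure D2:**
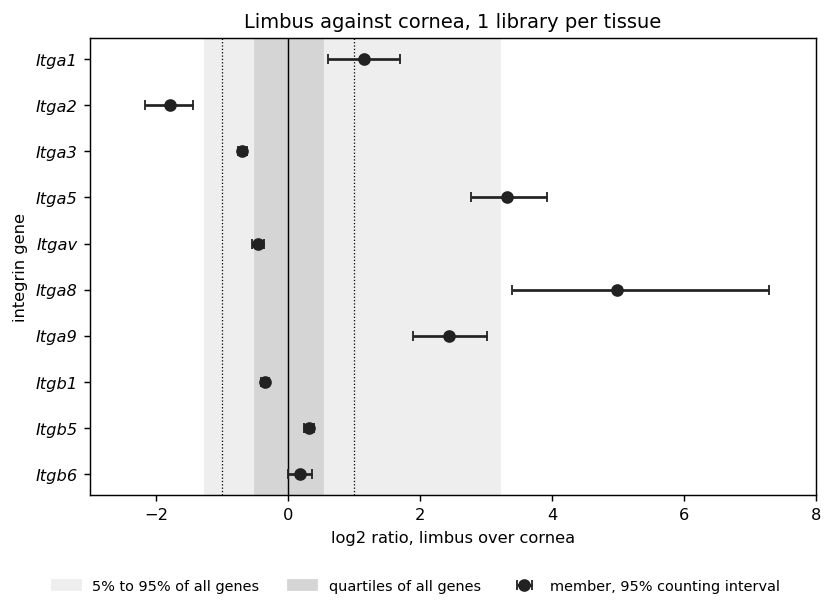
The log2 ratio of limbus over cornea for each integrin gene (points) with its 95% counting interval (bars), beside the 5% to 95% range and the quartiles of all 13932 genes (bands) and the 2-fold limits (dotted lines). Itga5 and Itga8 lie above the 5% to 95% range, Itga2 lies below it, and the 3 β chains lie within the quartiles.

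Set against Itgb1, with which most of these α chains pair, the α chains kept these directions. Such a ratio of reads within a library needs no size factor, and only its change between libraries is compared here. For each 1000 reads of Itgb1, Itga3 had 846 cornea reads and 666 limbus reads, a log2 change of -0.35 (95% CI -0.44 to -0.25). Itga2 had 58.1 and 21.3, a log2 change of -1.45 (95% CI -1.82 to -1.09). Itga5 had 5.47 and 69.4, a change of 3.67 (95% CI 3.11 to 4.28), and Itga9 had 6.41 and 44.1, a change of 2.78 (95% CI 2.24 to 3.36). These gains of Itga5 and Itga9 over Itgb1 were thus not set by the scaling. Itga8 had 0.57 and 22.8, a change of 5.33 (95% CI 3.74 to 7.64), and Itga1 had 8.30 and 23.3, a change of 1.49 (95% CI 0.95 to 2.05). Itgav changed little, from 458 to 423, or by -0.11 (95% CI -0.22 to -0.004). The β partners of αv were higher relative to αv itself in the limbus. For each 1000 reads of Itgav, Itgb5 had 1019 in the cornea against 1746 in the limbus (log2 change 0.78, 95% CI 0.66 to 0.90), and Itgb6 had 187 and 292 (0.64, 95% CI 0.43 to 0.85). The ratio of Itgb6 to Itgb5 had a log2 change of -0.14 and an interval across 0 (95% CI -0.34 to 0.07).

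Levels of different genes were compared as normalized reads per kb of the longest annotated transcript, with exact Poisson intervals. In the cornea the order of the α chains was Itga3 (892 per kb), Itgav (333), Itga2 (41.9), Itga5 (6.40), Itga9 (4.69), Itga1 (3.88) and Itga8 (0.50). The intervals of Itga5 (4.29 to 9.19), Itga9 (3.24 to 6.55) and Itga1 (2.82 to 5.21) overlapped, so that these neighbors could not be ordered. In the limbus the order was Itga3 (552 per kb), Itgav (242), Itga5 (63.9), Itga9 (25.3), Itga8 (15.8), Itga2 (12.1) and Itga1 (8.58). Here Itga8 (12.7 to 19.5) overlapped Itga2 (9.61 to 15.0), which overlapped Itga1 (6.91 to 10.5). Itga2 thus went from the place after Itgav in the cornea to a place below Itga5 and Itga9 in the limbus. Of the 3 β chains, Itgb1 was first in both tissues (1345 per kb in the cornea and 1058 in the limbus), before Itgb5 (729 and 909) and Itgb6 (91.6 and 103.9).

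As shares of the summed per-kb level of the 7 α chains, Itga3 took 69.6% in the cornea against 60.03% in the limbus, and Itgav took 26.0% and 26.3%. Itga1, Itga5, Itga8 and Itga9 together took 1.21% in the cornea against 12.35% in the limbus, of which Itga5 alone took 0.50% and 6.95%. Itga2 took 3.27% and 1.31%. The α chains that are common to both tissues, Itga3 and Itgav, thus still took 86.3% in the limbus, against 95.5% in the cornea. Of the summed level of the 3 β chains, Itgb1 took 62.1% in the cornea and 51.1% in the limbus, Itgb5 33.7% and 43.9%, and Itgb6 4.23% and 5.02%.

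**Figure D3:**
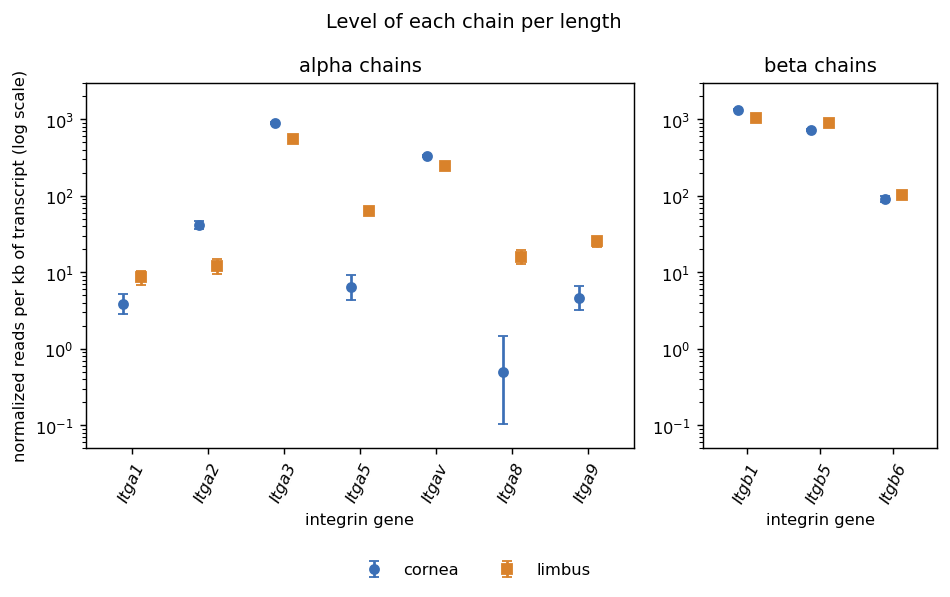
Normalized reads per kb of transcript of the 7 α chains (left) and the 3 β chains (right) in the cornea (circles) and the limbus (squares), on a log axis, with exact 95% Poisson intervals as bars. Itga3 leads these 7 α chains in both tissues at 892 and 552 per kb, and Itga5 goes from 6.40 in the cornea to 63.9 in the limbus.

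The other integrin genes were mostly higher in the limbus. Of 17 listed, Itgad and Itgb2l were listed at 0 and 14 had a mean of at least 10. At least 2-fold higher in the limbus were 8 of these 14, beside 18.0% of all genes, and none was 2-fold higher in the cornea. Of the 8, Itga7, Itgal, Itgb2 and Itgb8 had fewer than 10 cornea reads and met the mean through the limbus alone. Itgb8 was chosen after its values were seen. The chains with the most reads, Itga6, Itgb4, Itgam and Itgb7, differed by less than 2-fold. Counting error was exceeded by 10 toward the limbus and by 4 toward the cornea, beside 36.0% and 40.5% of all genes, and with total reads as the scale by 10 and 2, beside 47.8% and 29.7%. Their median log2 ratio was 1.07. With the size factors, the 2 hemidesmosome chains were higher in the cornea, like their laminin-binding relative Itga3. Itga6 had 6905 cornea reads and 3401 limbus reads (log2 ratio -0.93, 95% CI -0.99 to -0.87), and Itgb4 had 7893 and 6196 (-0.25, 95% CI -0.30 to -0.21). With total reads as the scale, the ratio of Itgb4 was -0.05 and its interval crossed 0 (95% CI -0.10 to 0.0004). Among the chains of leukocyte integrins, Itgb2, the common β2 chain, had 7 cornea reads and 59 limbus reads (3.17, 95% CI 2.04 to 4.55). Its partners Itgal (5 and 34 reads, 2.86) and Itgax (19 and 73 reads, 2.04, 95% CI 1.29 to 2.85) were higher in the limbus as well. Itgam, also a partner of β2, had far more reads than Itgb2, 6003 in the cornea against 8793 in the limbus, a ratio of 0.65 on the log2 scale (95% CI 0.60 to 0.69). The protein-coding gene Gm49368 overlaps Itgam on the same strand, and how the counting shared out reads between these 2 genes is not given. The leukocyte chains Itgb7 and Itga4 lay on the corneal side. Itgb7 had 749 and 491 reads (-0.51, 95% CI -0.68 to -0.35), and its partner Itga4, chosen after its values were seen, had 41 and 20 (-0.94, 95% CI -1.79 to -0.14). With total reads or the upper quartile as the scale, the interval of Itga4 crossed 0 (95% CI -1.58 to 0.07 and -1.63 to 0.03). The leukocyte chain Itgae, also chosen after its values were seen and with a mean below 10, had 2 and 16 reads. Itgb3, which like β5 pairs with αv, had 16 and 41 reads (1.45, 95% CI 0.59 to 2.39). Chosen after its values were seen, Itga7, a laminin receptor chain known from muscle, had 3 and 113 reads (5.33, 95% CI 3.75 to 7.63), close to Itga8 in both libraries.

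Ligands of these receptors were higher in the limbus more often than not. Of 26 listed, 25 had a mean of at least 10, 15 were at least 2-fold higher in the limbus and 1 was so in the cornea, beside 18.0% and 8.88% of all genes. Their log2 ratios had a median of 1.79. Tnc, Spp1 and Vtn had fewer than 10 cornea reads and met the mean through the limbus alone. Tnc, which encodes tenascin C, the ligand of α9, had 9 cornea reads and 834 limbus reads, a log2 ratio of 6.63 (95% CI 5.70 to 7.76). Spp1, which encodes osteopontin, an RGD ligand, had 8 and 439 reads (5.87, 95% CI 4.88 to 7.09). Col3a1, a fibrillar collagen gene, had 106 and 3124 (4.98, 95% CI 4.70 to 5.27), and Tgfb3, whose latent product αvβ6 can release, had 76 and 1212 (4.09, 95% CI 3.76 to 4.45). Fn1, which encodes fibronectin, the ligand of α5, was not higher in the limbus: it had 7969 cornea reads and 6325 limbus reads (-0.24, 95% CI -0.29 to -0.19). With total reads as the scale its log2 ratio was -0.03 (95% CI -0.08 to 0.02). Col1a1 had 13776 and 30674 reads (1.25, 95% CI 1.22 to 1.28), and Col1a2 had 14627 and 26048 (0.93, 95% CI 0.90 to 0.96), both higher in the limbus, unlike Itga2. The collagen IV genes, chosen after their values were seen, were higher in the limbus like Itga1, Col4a1 with 269 and 1824 reads (2.86, 95% CI 2.67 to 3.05) and Col4a2 with 231 and 1639 (2.92, 95% CI 2.72 to 3.13). Lama3, which encodes a chain of the laminin that α3 binds in epithelium, had 5032 and 2484 reads (-0.92, 95% CI -0.99 to -0.85). Lamb1, which encodes the laminin β1 chain, was the 1 ligand gene past 2-fold in the cornea (4677 and 1978 reads, -1.15, 95% CI -1.22 to -1.07). With scaling to total reads or to the upper quartile, Lamb1 fell short of 2-fold.

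For α8, α9 and αvβ5, further listed ligands were chosen after their values were seen. Npnt, which encodes nephronectin, the ligand of α8, had 292 cornea reads and 694 limbus reads (log2 ratio 1.34, 95% CI 1.15 to 1.55). Its cornea reads thus exceeded those of Itga8, which had 3. The α9 ligands Svep1 (164 and 881 reads, 2.52, 95% CI 2.28 to 2.77) and Emilin1 (135 and 511 reads, 2.02, 95% CI 1.74 to 2.30) were both at least 2-fold higher in the limbus. Vtn, which encodes vitronectin, the ligand of αvβ5, had 3 and 112 reads (5.32, 95% CI 3.73 to 7.62).

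Genes of the adhesion complex inside the cell lay nearer to the background. All 34 listed genes had a mean of at least 10, of which 7 were at least 2-fold higher in the limbus and 2 were so in the cornea, beside 18.0% and 8.88% of all genes. Counting error was exceeded by 17 toward the limbus and by 13 toward the cornea, beside 36.0% and 40.5%, and with total reads as the scale by 22 and 8, beside 47.8% and 29.7%. The median log2 ratio was 0.21. Several closely related genes lay on opposite sides, and of those named here Fermt1, Fermt2 and Lims1 were chosen after their values were seen. Of the kindlins, Fermt3 was 2-fold higher in the cornea (2668 and 1072 reads, -1.22, 95% CI -1.32 to -1.12), Fermt1 had 2743 and 1563 (-0.72, 95% CI -0.81 to -0.63), and Fermt2 was 2-fold higher in the limbus (103 and 323, 1.74, 95% CI 1.42 to 2.08). The protein-coding gene Trpt1 overlaps Fermt3 on the other strand, and whether its reads were counted for Fermt3 is not given. Of the tensins, Tns4 was 2-fold higher in the cornea (8943 and 3531 reads, -1.24, 95% CI -1.30 to -1.19) whereas Tns1 was higher in the limbus (283 and 1492 reads, 2.49, 95% CI 2.31 to 2.68). Of the parvins, Parva had 5396 and 2822 reads (-0.84, 95% CI -0.91 to -0.77) and Parvb had 14 and 109 (3.06, 95% CI 2.25 to 3.97). Of the PINCH adaptor genes, Lims1 had 3669 and 1781 reads (-0.95, 95% CI -1.03 to -0.86) and Lims2 had 14 and 84 (2.68, 95% CI 1.85 to 3.61). Of the α-actinins, Actn4 had 74506 and 65439 reads (-0.09, 95% CI -0.11 to -0.08, but 0.11 with total reads as the scale) and Actn1 had 145 and 837 (2.62, 95% CI 2.37 to 2.89). Flna, which encodes the actin crosslinker filamin A, had 4117 and 4756 (0.30, 95% CI 0.24 to 0.36).

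**Figure D4:**
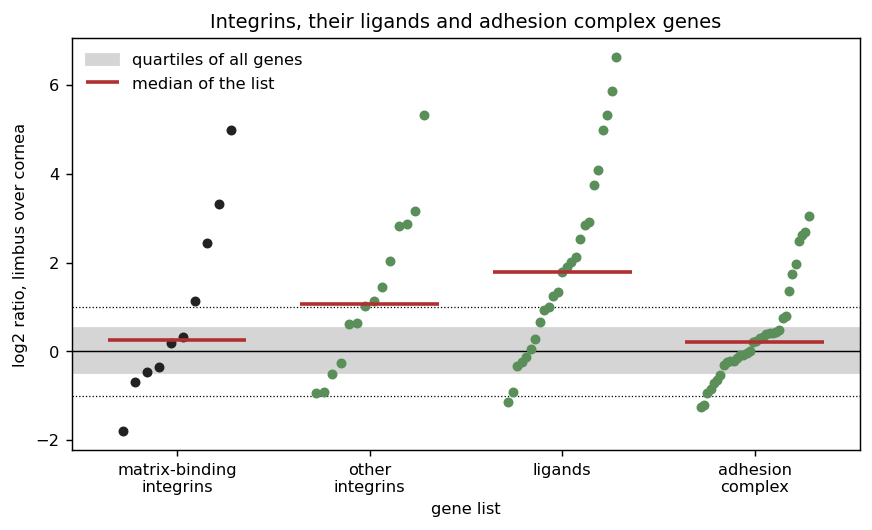
The log2 ratio of limbus over cornea for the 10 matrix-binding integrins, 14 other integrins, 25 ligand genes and 34 adhesion complex genes (points), with the median of each list (line), the quartiles of all genes (band) and the 2-fold limits (dotted lines). The medians are 0.25, 1.07, 1.79 and 0.21, and Tnc is the highest point at 6.63.

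Markers of other cell types that the limbal rim can hold were higher in the limbus along with Itga1, Itga5, Itga8 and Itga9. Of the markers of smooth muscle and pericytes with a mean of at least 10, 6 of 6 were at least 2-fold higher in the limbus, and the summed normalized reads of the 7 listed were 346 in the cornea against 3275 in the limbus. Des was at 0 in the cornea, Myh11, the smooth muscle myosin, had 8 and 277 reads, and Acta2 had 40 and 730. For blood endothelium the count was 5 of 6 and the sums 194 and 2528, with Pecam1 at 6 and 831 reads. Lymphatic endothelium (3 of 3, 18.4 and 401) and skeletal muscle (5 of 5, 77.4 and 9975) were also higher in the limbus, Myh4 having 8 and 3126 reads. Leukocyte markers were 2-fold higher in 2 of the 3 with a mean of at least 10 (490.5 and 1226 over the 5 listed, Cd79a at 0 in the cornea), Schwann cell markers in 3 of 4 (4247 and 6958), melanocyte markers in 4 of 4 (272 and 1369), and markers of trabecular and scleral fibroblasts in 4 of 5 (561 and 2978). Keratocyte markers were split, with 1 of 5 higher in the limbus and 2 of 5 in the cornea (57033 and 59548). Some markers, among them Des, Myh11, Pecam1 and Myh4, met the mean of at least 10 through the limbus alone. The part of these cell types, and of the limbal epithelium, in the ratios of the integrin genes was not tested.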

How the data were processed

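RNA of cornea and limbus was sequenced as stranded total RNA libraries, paired-end, on an Illumina NextSeq. Per the study's methods, the authors mapped the adaptor-trimmed reads to the mouse genome build GRCm38 (mm10) with CLC Genomics Workbench and name the trimmed mean of M-values as normalization. The study's methods do not name the program that wrote the table, whose own name holds the word deseq. Whether counting used strand is not given in the sources used here. This limits other named genes that a protein-coding gene overlaps on the other strand, such as Itga7 (Mettl7b), Itgae (Haspin) and Tgfb3 (Ttll5). The authors deposited 1 table that compares the tissues. Its signal column was made by the authors by dividing the reads of every library by that library's size factor and averaging over the libraries. The authors also deposited a shrunken log2 fold change, the standard error of it, and p-values before and after adjustment. None of these is printed: the p-values were not used, and the other columns served only to find the reads.

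Of 40904 rows, 17484 (42.7%) name no gene and stayed out of every total. Since 1 read of either library moves a mean by a fixed step, and the steps stand as 109 to 102, a mean limits which reads the libraries can have had. Several pairs of reads gave the mean of 11299 of the 17442 genes, and the pair was taken whose predicted standard error met the deposited value for 11177 of them. Where pairs met it about equally, 97 genes, among them Krt12, Krt15 and Actn4, were placed by the dispersion of genes of like mean and 25 by a fold change near 0. Itga1 and Itga8 had 1 possible pair, and the other members were placed by the standard error. On simulated data both reads were found for 15277 of 15277 genes. Only 200 of these genes were made to change, and 200 of 200 had the direction they were made with. Whether the deposited table was made in the same way as the simulated data was not tested by the simulation. The reads are therefore derived values and not a deposited count table.

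The labels number the 4 samples of a tissue L001 to L004, a form that sequencers also give to lanes. The depth was 26104317 and 21182025 reads on named genes, so that a gene with few reads, such as Itga8, has a wide interval. A library with fewer than 3 reads was set to 3 for fold sizes. Alternatives were other scalings, a pseudocount of 1, a 99% interval, a 1.5-fold limit, other filters and coding length. The members and lists were chosen with earlier results of these data known. Named were all 10 members, marker genes and, from each list, the 4 genes of highest mean and up to 4 genes past 2-fold in each direction with more than 3 reads in both libraries. A gene of the lists with another symbol in the table was matched through RefSeq synonyms. Positions are from GENCODE M21 and promoter windows from RefSeq, all 10 members matching by symbol. Scripts ran under Python 3.11.15, pandas 2.3.3, scipy 1.17.1, matplotlib 3.10.9 and numpy 2.4.6.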

Additional observations from a re-analysis of the deposited data

How the results depend on the processing

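No paired analysis was possible because no column of the table belongs to a numbered sample, and for the same reason no replicate could be left out. With 1 library per tissue, the values show how these libraries differ and not how far cornea and limbus vary. No ratio of the 10 integrin genes changed direction under the scalings, the pseudocount of 1 or the 99% interval, and the count past 2-fold stayed at 4 in the limbus and 1 in the cornea under each scaling and the pseudocount. Of all 13932 genes, 2502 and 1237 were past 2-fold in limbus and cornea with the size factors. These were 2834 and 783 with total reads and 2743 and 871 with the upper quartile. Itgb6 passed counting error in the limbus with 2 of the 3 other scalings, and the members beyond counting error were then 6 and 4. Beside these were 47.8% and 29.7% of all genes with total reads, and 45.2% and 31.9% with the upper quartile.

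With a 1.5-fold limit, 2 of the 10 integrins were higher in the cornea, Itga3 being added. So were 2 of 14 other integrins, 2 of 25 ligands and 6 of 34 adhesion complex genes. Beside these, 2940 of all 13932 genes were higher in the cornea at 1.5-fold, against 1237 at 2-fold. With total reads as the scale no ligand gene was 2-fold higher in the cornea and 783 of all genes were, and with the upper quartile the ligand count was also 0. With a mean of at least 50, 1417 of all genes were 2-fold higher in the limbus, against 2502, fewer genes being counted. By coding length in place of transcript length, the share of Itga1 among the α chains was 0.54% in the cornea and 1.65% in the limbus, against 0.30% and 0.93%. The depth limits Itga8 most, with 3 reads in the cornea.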
